A study of Mus musculus with 8 samples.

Results

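Genes of the voltage-gated and related ion channel families were taken by symbol from an array study of ADAR2-deficient mouse brain. Every gene whose symbol in the platform annotation begins with Kcn, Cacn, Hcn, Clcn, Trpa, Trpc, Trpm or Trpv, or with Scn and a digit, was included, except Kcna1 and Cacna1d. The rule gave 60 of 8653 named genes, on 78 of 12131 named probes. There were 28 potassium channel genes (33 probes), 17 calcium channel genes (27 probes), 9 TRP genes (9 probes), 4 chloride channel genes (7 probes), 1 HCN gene and 1 sodium channel gene. The choice by symbol also takes in proteins that are not channels, such as the Kcnip calcium sensors and Trpc4ap, a protein that binds a TRP channel. All 78 probes had a value in every mouse, and 72 had one on all 8 arrays. Of a list of 57 well-known brain channel genes, 29 were measured.

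Ion channels set the excitability of neurons and glia. Voltage-gated sodium and calcium channels open when the membrane depolarises, voltage-gated potassium channels bring it back, and auxiliary subunits set where these pores sit and how fast they open. Chloride channels and exchangers of the Clcn family act at the cell surface and in endosomes and lysosomes, and TRP channels are cation channels that respond to temperature, osmotic stress, ligands and calcium stores. ADAR2, encoded by Adarb1, deaminates adenosines in double-stranded RNA and recodes a small set of brain transcripts, some of them from channel genes.

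The channel families were measured here in the brains of 4 mutant mice, males aged 19 weeks, each set against 1 pooled RNA of age-matched wildtype males. All 4 mutants are ADAR2-/- and carry the GluR-B R/R alleles of Gria2, which encode the arginine form of this AMPA receptor subunit, so the loss of ADAR2 and the Gria2 alleles cannot be told apart. No source used here gives the strain or how the alleles were built. Each mouse was hybridised on 2 cDNA arrays with the dyes exchanged. "Cy5 arrays" below are the 4 on which the mutant RNA carried Cy5, and "Cy3 arrays" the 4 on which it carried Cy3. The series' design counts 4 mice in the pool, and the labelling protocol gives another number.

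The names rest on a shift of 11 spots between annotation and values, which was found in the values and is not in the labels. Under it, a pair of probes of one gene had related mean ratios (Spearman rho = 0.255 across 2543 genes), and at the same spot number they had not (rho = -0.0102 across 2537 genes). These correlations are across genes, which are not independent replicates, and are descriptions. They come from the same values in which the shift was found, so they are no separate support for it. No spot intensities were used here, so the tissue label could not be checked against cell type markers, and the number of mice limits the precision. In whole brain RNA, fewer cells of a type and less RNA per cell cannot be told apart. The 8 arrays held 20211 to 20559 usable values each. Their deposited medians ran from -0.57 to -0.0045, and the median absolute deviation was 0.361 to 0.486 on the Cy5 arrays and 0.659 to 0.972 on the Cy3 arrays.

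The labels leave the numerator of the log2 ratio unstated, and 2 quantities are therefore given for each probe. The mean ratio averages both arrays of a mouse after each array's median was taken off. It would compare mutant with pool, with unknown sign, had every ratio been formed in the same order of samples. Had every ratio been formed as Cy5 over Cy3, mutant against pool would cancel in the mean ratio. Calls in the mean ratio would then be an effect of the dye. The swap component takes the Cy3 array from the Cy5 array and divides by 2. It would give mutant over pool had every ratio been formed as Cy5 over Cy3. The mouse was the replicate (n = 4), errors are moderated standard errors of limma, and a probe was called at an adjusted p below 0.05 (limma, Benjamini-Hochberg over all probes). The pool is 1 sample, so the tests leave out the spread between wildtype mice. For Adarb1, the disrupted gene, probes 18422 and 18759 passed in the swap component (-1.23 and -1.33, adjusted p = 0.0383 and 0.0424) and probe 14946 did not (-0.099, adjusted p = 0.628). Both calls were lost with values as deposited, with arrays brought to one spread, with runs of 48 spots centred and without any 1 mouse, where limma called none of the 18797 probes. In the mean ratio only probe 18422 passed (0.70, adjusted p = 0.0297). All signs are as deposited, and whether a positive value means more or less RNA in the mutants is not known.

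The probe with the largest positive mean ratio among the channels belonged to Cacna2d1, which encodes an alpha-2/delta subunit that carries calcium channels to the surface. Trpm8, the cold and menthol receptor of sensory neurons, was the gene called with a negative mean ratio and also called in the swap component. Their promoters are shown, a choice made after the values were seen, because they differ widely in base composition. Of the 60 genes, 46 have an entry in the RefSeq promoter table (GRCm38.p6), 29 of them only 1. The 100 bases before the annotated start follow, both on the + strand, at chr5:15934591-15934690 for Cacna2d1 and chr1:88306635-88306734 for Trpm8, with each CG dinucleotide in capitals.
Cacna2d1: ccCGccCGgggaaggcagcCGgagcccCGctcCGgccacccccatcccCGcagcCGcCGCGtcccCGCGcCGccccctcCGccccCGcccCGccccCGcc
Trpm8: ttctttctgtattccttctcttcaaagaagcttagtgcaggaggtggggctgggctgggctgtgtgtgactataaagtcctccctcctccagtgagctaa
The stretch of Cacna2d1 holds 16 CG dinucleotides and that of Trpm8 none. In the 250 bases before the start Cacna2d1 has 36 and Trpm8 has 1. Of 32851 promoter entries, 92.1% hold at least 1 CG in such a window and 2.58% hold 36 or more, with a median of 6. The dinucleotide reads the same on both strands. Among genes with 1 entry, 5 had a probe with a positive call (Cacna1b, Cacna2d1, Kcna6, Kcnc4 and Kcnj3). They held 7 to 36 in the window, with a median of 12. The 4 genes with a negatively called probe (Kcnd3, Kcnip2, Trpm8 and Trpv4) held 1 to 22, with a median of 16.5. The ranges overlapped, and the medians lay the other way round from the pair shown. The sequences of the cDNA probes themselves were not used here.

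Across the 78 channel probes, 22 were called in the mean ratio (28.2%), against 30.4% of all 20595 probes tested. Positive calls numbered 13 and negative calls 9, against 17.0% and 13.3% of all probes. The share called among the channels was thus close to that of the array. Their median mean ratio was -0.036, and that of all probes -0.09. With values as deposited, without subtraction of medians, 21 probes were called, 7 positive and 14 negative, while the median of all probes moved to -0.25. The split between positive and negative calls therefore depends on the centring, although none of the 22 called values changed sign. With the probes of a gene averaged, 17 of 60 genes were called, 10 positive and 7 negative, against 28.8% of all genes. Kcnk3 and Cacna2d3, each with 1 probe, missed the threshold by probe and passed in this fit over genes (0.54 and 0.48, limma, adjusted p = 0.0432 and 0.0424). At an unadjusted p below 0.05 there were 37 channel probes (limma), against 44.8% of all probes.

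On single arrays the families kept their place to differing degrees. Potassium channel probes had medians between -0.15 and 0.063 on the 8 arrays, near the array median throughout. Calcium channel probes had medians of 0.12 to 0.43 on 7 arrays and -0.049 on the Cy5 array of mouse 2. Chloride channel probes stood at -0.038, 0.09, -0.17 and 0.081 on the Cy5 arrays of mice 1 to 4, and at 1.02, 0.79, 0.68 and -0.17 on the Cy3 arrays. TRP probes had a negative median on every array, from -0.68 to -0.13 on the Cy5 arrays and from -1.28 to -0.34 on the Cy3 arrays.

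**Figure D1:**
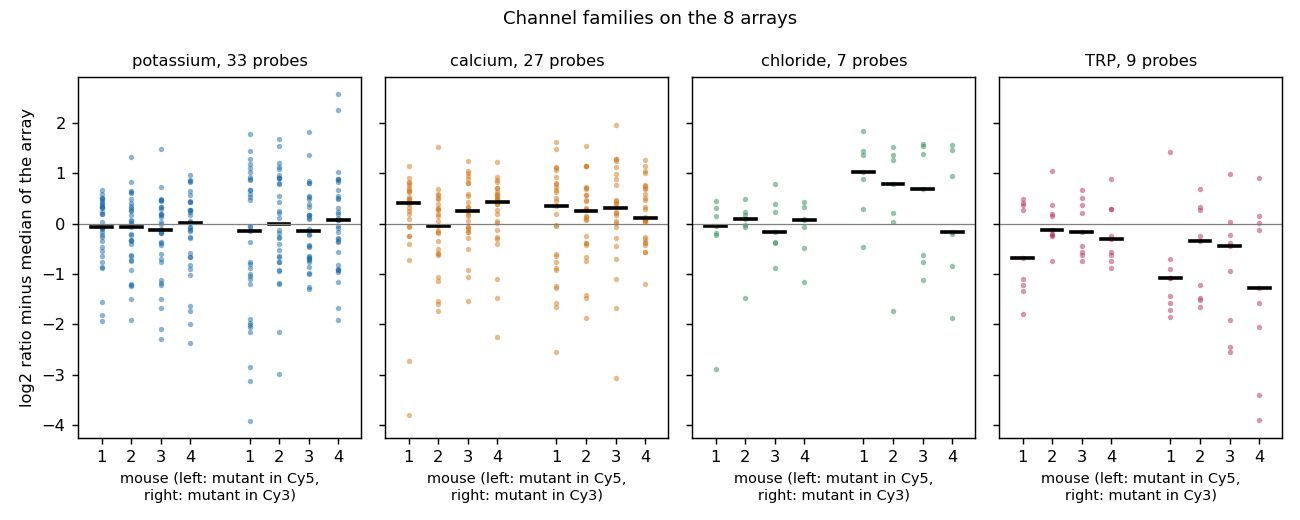
Log2 ratio minus the median of the array (y axis) for every probe of 4 channel families on each of the 8 arrays (x axis, mice 1 to 4, with the mutant in Cy5 to the left and in Cy3 to the right). Points are probes and black bars are medians. The TRP medians lie below 0 on all 8 arrays (-1.28 to -0.13), and the potassium medians lie between -0.15 and 0.063.

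Of the 33 potassium channel probes, 4 had a positive and 6 a negative call (30.3% called, against 30.4% of all probes). Among the 8 voltage-gated pore subunits measured, Kcna6 and Kcnc4 were positive and Kcnd3 was negative. Kcna6 encodes a Kv1 subunit of axons, found in complexes with the product of Kcna1. Probe 4776 gave 0.50, 0.65, 0.73 and 0.64 in mice 1 to 4 on the Cy5 arrays and 1.03, 1.20, 0.40 and 0.89 on the Cy3 arrays. All 8 values were positive, and the mean ratio of the mice ran from 0.56 to 0.92. Over the 4 mice this gave a mean ratio of 0.75 ± 0.135 (adjusted p = 0.0142, limma). Kcnc4 encodes Kv3.4, a fast pore that helps to repolarise axons and terminals. Its values in mice 1 to 4 were 0.32, 0.48, 0.50 and 0.86 with Cy5 and 0.87, 0.96, 0.52 and 0.20 with Cy3. Its values were again positive on all 8 arrays, and the orientations overlapped. The mean ratio was 0.59 ± 0.129 (adjusted p = 0.0229, limma), and with values as deposited it missed the threshold (0.43, adjusted p = 0.064).

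Kcnd3 encodes Kv4.3, a pore of the A-type current of dendrites. Kcnd3 stood at -0.46, -1.22, -2.09 and -1.63 on the Cy5 arrays of mice 1 to 4 and at -0.36, -0.77, -1.25 and -0.96 on the Cy3 arrays. All 8 values were negative, with mouse 1 nearest to 0 in both orientations. In the mean ratio it stood at -1.09 ± 0.231 (adjusted p = 0.0211, limma). The swap component was -0.26 ± 0.121 (adjusted p = 0.209, limma). Without mouse 1 the call held, and without mouse 2, 3 or 4 it was lost (limma, adjusted p up to 0.0726).

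The other voltage-gated pores did not pass. Kcnq3, a subunit of the M-current, had the largest standard error of the 72 swap components. Probe 17399 gave 0.39, -1.92, -1.49 and -1.98 in mice 1 to 4 on the Cy5 arrays and -2.14, 1.54, 1.81 and 2.25 on the Cy3 arrays. In mice 2 to 4 the Cy5 arrays were far below and the Cy3 arrays far above 0, and mouse 1 ran the opposite way. Its swap component was -1.06 ± 0.559 (adjusted p = 0.254, limma), with mouse 1 at 1.26 and the others from -2.12 to -1.65. The mean ratio was -0.19. Kcnh1, an EAG channel of neurons, had a mean ratio of 0.066 and a swap component of 0.44 ± 0.125 (adjusted p = 0.0793, limma). Kcnh2, which encodes ERG1, lacked a value on 1 array. Its 4 mice stood at -2.40, -1.50, 0.56 and 0.28 in the mean ratio, whose average was -0.76 ± 0.531 (adjusted p = 0.31, limma). Kcnh3, which encodes an ELK channel of the forebrain, and Kcnf1, a silent subunit of Kv2 channels, had mean ratios of -0.49 and 0.24 and did not pass (adjusted p = 0.133 and 0.35).

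Auxiliary subunits of potassium channels gave 5 calls on 11 probes, 1 positive and 4 negative (45.5% called, against 30.4% of all probes). Kcnab2 encodes the beta-2 subunit that accompanies Kv1 pores into axons. Its values in mice 1 to 4 were 0.50, 0.35, 0.33 and 0.27 with Cy5 and 1.78, 1.67, 1.37 and 0.83 with Cy3. Every value was positive, and every Cy3 array stood above every Cy5 array. The 4 mice averaged 0.89 ± 0.155 (adjusted p = 0.0132, limma) in the mean ratio. The swap component was -0.53 ± 0.124 (adjusted p = 0.0551, limma) and missed the threshold by probe. It passed in the limma fit over genes (adjusted p = 0.0446) and with 8 arrays in one fit and the mouse as a random block (adjusted p = 0.0205). The random-block fit took a correlation of 0.145 between the 2 arrays of a mouse, so they counted almost as separate replicates. Of all probes, it called 36.5% in the mean ratio and 15.8% in the swap component, against 30.4% and 7.84% by mouse. Its calls rest on the same arrays and are no separate support. Kcnab1, the paralogue of Kcnab2, had the opposite sign in the mean ratio. Kcnab1 stood at -0.34, 1.33, -0.43 and -0.81 on the Cy5 arrays of mice 1 to 4 and at -1.89, -2.15, -0.68 and -1.68 on the Cy3 arrays. Mouse 2 was high in Cy5 alone, at 1.33, and the other 7 values were negative. Averaged over mice, the mean ratio was -0.83 ± 0.194 (adjusted p = 0.0274, limma). It missed the threshold once the arrays were brought to one spread (-0.60, adjusted p = 0.155). Kcne3, a small subunit best known from epithelia, had negative values on all 8 arrays, from -2.05 to -0.26. Its mean ratio was -0.78 ± 0.206 (adjusted p = 0.0391, limma).

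Kcnip2 encodes KChIP2, a calcium sensor that binds Kv4 pores such as Kv4.3, and it had 4 probes. Of these, 2 were called. Probe 12757 had 8 negative values. Probe 12757 gave -0.86, -0.64, -1.68 and -1.73 in mice 1 to 4 on the Cy5 arrays and -1.20, -0.66, -0.72 and -1.16 on the Cy3 arrays. Over the 4 mice this gave a mean ratio of -1.08 ± 0.174 (adjusted p = 0.0112, limma). Probe 12025 was negative on all 8 arrays as well. Its values in mice 1 to 4 were -0.23, -0.73, -0.77 and -0.67 with Cy5 and -1.10, -0.91, -1.30 and -0.91 with Cy3. Here every Cy5 array stood above every Cy3 array, and the mean ratio was -0.83 ± 0.136 (adjusted p = 0.0118, limma). Probes 15960 and 13590 stood near 0, at 0.047 ± 0.182 and 0.20 ± 0.164 (limma, adjusted p = 0.86 and 0.384). The annotation gives all 4 probes the same transcript accession, and which of them measures Kcnip2 transcript was not tested. With runs of 48 spots centred, probe 12025 lost its call (-0.31, adjusted p = 0.162) and probe 12757 kept it (-0.60, adjusted p = 0.0452). Kcnip1 and Kcnip3, of the same sensor family, had mean ratios of 0.16 and 0.045 (adjusted p = 0.41 and 0.837). In Kcnip1, all Cy5 arrays lay below all Cy3 arrays, and the swap component was -0.41 ± 0.143 (adjusted p = 0.117, limma). Kcnmb4, the neuronal beta-4 subunit of BK channels, also had all Cy5 arrays below all Cy3 arrays. Kcnmb4 stood at -0.54, -0.021, -2.28 and -0.67 on the Cy5 arrays of mice 1 to 4 and at 0.89, 0.91, 0.18 and 0.063 on the Cy3 arrays. Its swap component was -0.69 ± 0.173 (adjusted p = 0.0607, limma), with a mean ratio of -0.18. Kcnmb2 had no value on 1 array and a mean ratio of -0.07 (adjusted p = 0.892).

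Inward rectifiers, K2P leak channels, calcium- or sodium-activated channels and Kcnu1 made up the rest of the potassium family. Kcnj3 encodes GIRK1, a subunit of the potassium channels that G proteins open. Probe 13548 gave 0.33, 0.27, 0.18 and 0.96 in mice 1 to 4 on the Cy5 arrays and 1.29, 1.08, 0.80 and 0.86 on the Cy3 arrays. All 8 values were positive. In the mean ratio it stood at 0.72 ± 0.141 (adjusted p = 0.0171, limma). Kcnj8, Kcnj15 and Kcnj16 had mean ratios of -1.13, -0.82 and -0.21 and none passed (adjusted p = 0.123, 0.125 and 0.374). Kcnj8, an ATP-sensitive pore of vessels, ranged from -3.92 to 1.02 over its 7 arrays. The 3 K2P genes, Kcnk2 (-0.41), Kcnk5 (-0.32) and Kcnk3 (0.54), did not pass by probe. Kcnk3, which encodes the acid-sensitive TASK1, was positive on all 8 arrays (limma, adjusted p = 0.0509). It passed in the fit over genes, as given above, and with the mouse as a random block (adjusted p = 0.0167). Kcnk5 had all Cy5 arrays above all Cy3 arrays.

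Kcnu1, a large-conductance potassium channel best known from sperm, had a negative call. Its values in mice 1 to 4 were -0.87, -0.73, -1.12 and 0.011 with Cy5 and -0.80, -1.17, -0.98 and -1.92 with Cy3. Of 8 values, 7 were negative, and the mean ratio of the 4 mice ran from -1.05 to -0.83. The 4 mice averaged -0.95 ± 0.128 (adjusted p = 0.00941, limma) in the mean ratio. It was -0.29 with runs of 48 spots centred (adjusted p = 0.174). The SK channels Kcnn2 and Kcnn3 stood at 0.063 and -0.63 (adjusted p = 0.766 and 0.306), and the probes of Kcnn4, a channel best known from blood cells, at -0.16 and 0.059. Kcnt1, which encodes the sodium-activated channel Slack, had probes at 0.42 and 0.69, neither past the threshold (adjusted p = 0.125 and 0.0848). Hcn3, the HCN pacemaker channel, had values from -1.92 to 0.78 on the 8 arrays and a mean ratio of -0.62 ± 0.342 (adjusted p = 0.211, limma).

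**Figure D2:**
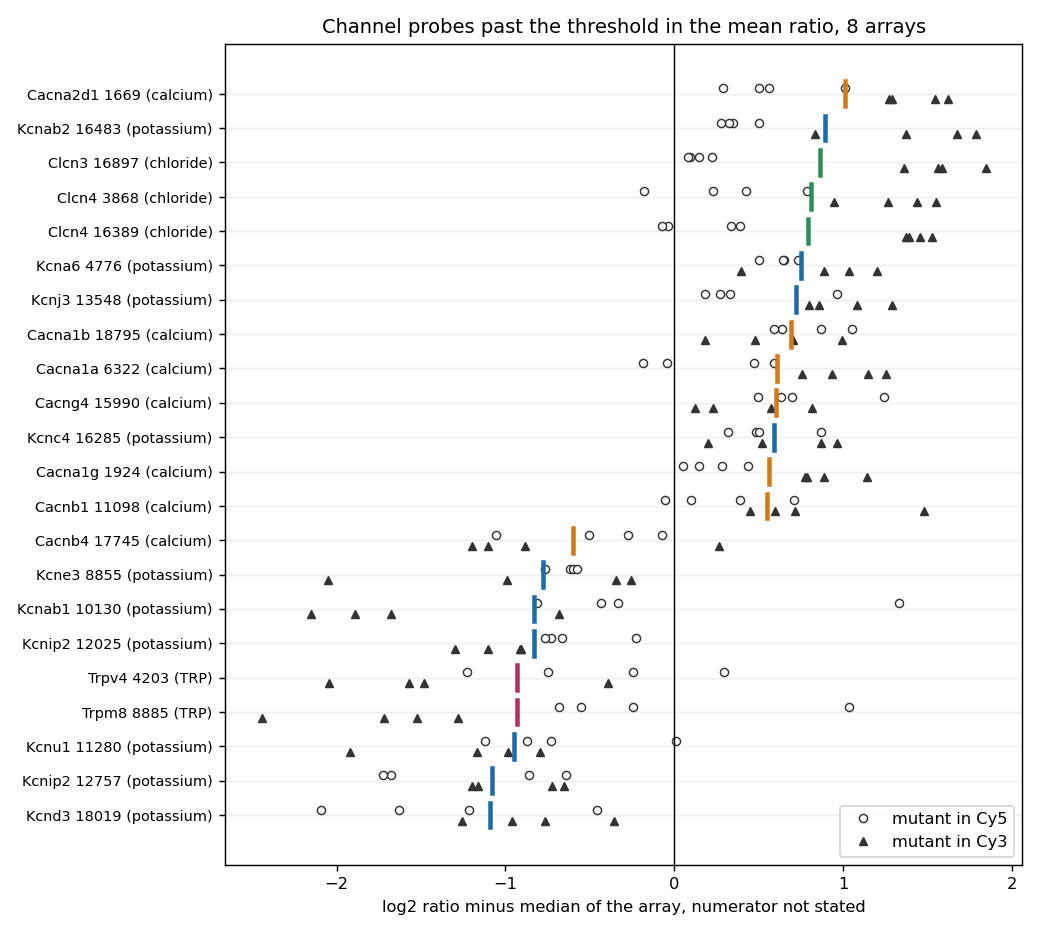
Values of the 22 channel probes called in the mean ratio on each array (x axis, log2 ratio minus the median of the array). Open circles are the 4 arrays with the mutant in Cy5, filled triangles the 4 with the mutant in Cy3, and vertical bars the mean ratio, coloured by family. In Clcn3 probe 16897 every triangle (1.36 to 1.85) lies to the right of every circle (0.081 to 0.22).

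Calcium channel genes had 6 positive calls and 1 negative call on 27 probes (25.9% called, against 30.4% of all probes). Only Cacna2d1 among the positive calls also passed with values as deposited. The other 5 then had adjusted p between 0.0659 and 0.0996. Of 11 pore probes, 3 were called, all positive. Cacna1b encodes Cav2.2, the N-type channel of presynaptic terminals. Cacna1b stood at 0.64, 0.59, 1.05 and 0.87 on the Cy5 arrays of mice 1 to 4 and at 0.18, 0.48, 0.99 and 0.70 on the Cy3 arrays. Its values were positive on all 8 arrays, and the orientations overlapped. Averaged over mice, the mean ratio was 0.69 ± 0.159 (adjusted p = 0.0268, limma). Cacna1a encodes Cav2.1, the P/Q-type channel of terminals and Purkinje cells, and its 3 probes differed. Probe 6322 had every Cy3 array above every Cy5 array. Probe 6322 gave -0.045, -0.19, 0.59 and 0.47 in mice 1 to 4 on the Cy5 arrays and 0.93, 1.14, 1.25 and 0.75 on the Cy3 arrays. Its mean ratio was 0.61 ± 0.147 (adjusted p = 0.0295, limma). Probe 8445 stood at -0.031 (adjusted p = 0.942). Probe 10531 stood at -0.69 ± 0.221 (adjusted p = 0.0647, limma), with 7 of 8 values negative. It passed, with the sign opposite to probe 6322, with the mouse as a random block (adjusted p = 0.0278), as deposited (-0.85, adjusted p = 0.0401) and at one spread (-0.77, adjusted p = 0.0498). Cacna1g encodes Cav3.1, a T-type channel of thalamic and cerebellar neurons. Its probe 1924 was positive on all 8 arrays, with the Cy3 arrays (0.77 to 1.14) above the Cy5 arrays (0.053 to 0.43), and its mean ratio was 0.56 ± 0.13 (adjusted p = 0.0265, limma). Its probe 1554 stood at 0.17 ± 0.244 (adjusted p = 0.625).

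The L-type, R-type and other pores were not called. Cacna1c, which encodes the L-type channel Cav1.2, lacked 1 value on probe 10346 and 2 on probe 9645. In probe 10346, mice 1 to 4 stood at -2.64, -1.81, -0.92 and 0.15 in the mean ratio, and in probe 9645 at -2.73, -0.75, 0.89 and -0.38. The averages were -1.30 ± 0.453 (adjusted p = 0.0777, limma) and -0.74 ± 0.559 (adjusted p = 0.345, limma). Probe 10346 passed with the mouse as a random block (-1.38, adjusted p = 0.0341). Cacna1e, the R-type pore, stood at -0.061, Cacna1f, the L-type pore of the retina, at -0.71, and Cacna1h, a further T-type pore, at 0.29 (adjusted p = 0.837, 0.0678 and 0.244).

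Auxiliary calcium channel subunits held the other 4 calls. Probe 1669 of Cacna2d1 had the largest positive mean ratio of all 78 channel probes. In mice 1 to 4, Cacna2d1 had 0.50, 0.29, 1.01 and 0.56 on the Cy5 arrays and 1.62, 1.54, 1.29 and 1.27 on the Cy3 arrays. All 8 values were positive, and the Cy3 arrays stood above the Cy5 arrays. The mean ratio was 1.01 ± 0.131 (adjusted p = 0.00924, limma), which as a ratio is 2.01. It was called without any one of the 4 mice. Its swap component was -0.42 ± 0.132 (adjusted p = 0.0965, limma), and passed with the mouse as a random block (adjusted p = 0.0377). The other probes of Cacna2d1 stood at -0.27 (2314) and -0.041 (6640), with adjusted p of 0.461 and 0.894. Cacna2d2 and Cacna2d3, its paralogues, stood at -0.11 and 0.48 (adjusted p = 0.587 and 0.0518). Cacnb1, a beta subunit that binds the pore from inside the cell, had 7 of 8 positive values. Over the 4 mice this gave a mean ratio of 0.55 ± 0.155 (adjusted p = 0.0464, limma). Cacnb2 was positive on all 8 arrays, with a mean ratio of 0.64 ± 0.227 (adjusted p = 0.0837, limma), and did not pass. Cacnb4, the beta subunit prominent in cerebellum, had probes of opposite sign. Probe 17745 was called. Cacnb4 stood at -0.076, -1.05, -0.51 and -0.27 on the Cy5 arrays of mice 1 to 4 and at -0.88, 0.26, -1.10 and -1.20 on the Cy3 arrays. Of its 8 values 7 were negative, and the mean ratio was -0.60 ± 0.143 (adjusted p = 0.0286, limma). The call was lost with 8 arrays in one fit and the mouse as a random block (adjusted p = 0.0536). Probe 13560 stood at 0.42 ± 0.172 (adjusted p = 0.114) and passed with runs of spots centred (0.68, adjusted p = 0.0364).

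Gamma subunits, several of which are also auxiliary subunits of AMPA receptors, gave 1 call on 7 probes (14.3%, against 30.4% of all probes). Probe 15990 of Cacng4 was positive on all 8 arrays, from 0.12 to 1.24. In the mean ratio it stood at 0.60 ± 0.136 (adjusted p = 0.0255, limma). The other 3 probes of Cacng4 stood at 0.0016, 0.38 and 0.41 and did not pass. With runs of 48 spots centred, probe 15990 stood at 0.10 (adjusted p = 0.602). Cacng2, which encodes stargazin, lacked 1 value and had a mean ratio of -0.58 ± 0.297 (adjusted p = 0.184, limma). Cacng8 had all Cy5 arrays (-0.50 to 0.49) below all Cy3 arrays (0.69 to 1.15), with a swap component of -0.48 ± 0.137 (adjusted p = 0.0805, limma), which passed with the mouse as a random block (adjusted p = 0.0473). Cacng1, the subunit of skeletal muscle, stood at 0.30 (adjusted p = 0.276).

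Genes with several probes allow a comparison within a gene. There were 11 such genes with 29 probes in all. In 7 of them some probes were called and others not, in 4 no probe was called, and in none were all probes called. Probes of 5 genes differed in sign, namely Cacna1a, Cacna2d1, Cacnb4, Kcnip2 and Kcnn4. The median distance between the highest and the lowest probe of a gene was 0.56 in the mean ratio. It was largest in Cacna1a, at 1.30, followed by 1.28 in both Cacna2d1 and Kcnip2. With its probes averaged, none of these 3 genes was called (adjusted p = 0.855, 0.267 and 0.0795). The differences between probes of a gene were not tested. The same counts were not made for the other genes of the array, so they are not read as particular to channel genes.

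**Figure D3:**
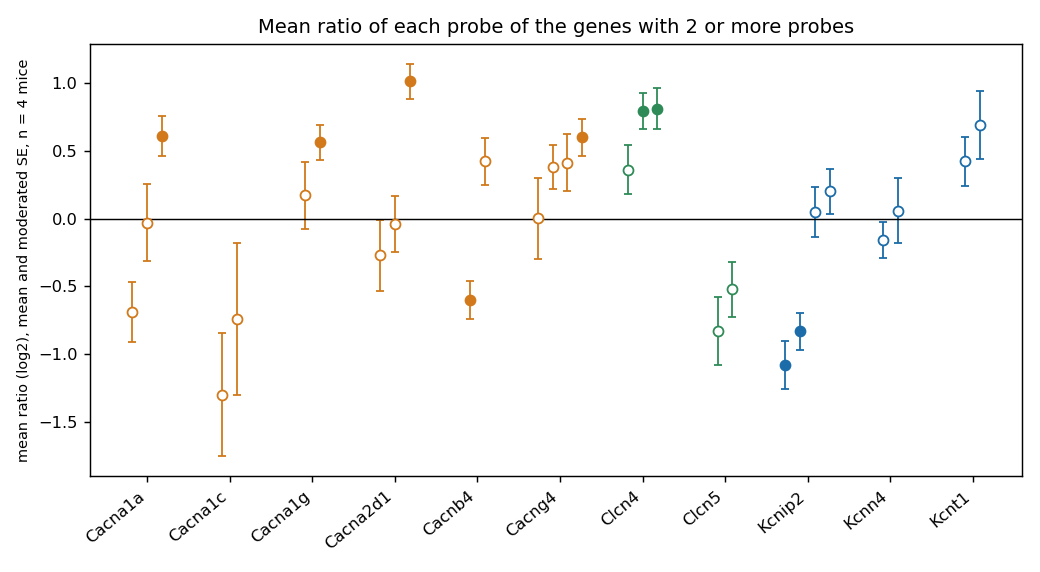
Mean ratio (y axis, log2, with the moderated standard error over 4 mice) of each of the 29 probes of the 11 channel genes with 2 or more probes. Filled points passed the threshold. The probes of Kcnip2 fall at -1.08 and -0.83 on one side and at 0.047 and 0.20 on the other, and those of Clcn4 at 0.36, 0.79 and 0.81.

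Chloride channel genes had 3 positive calls on 7 probes (42.9% called), on 2 genes. Over all probes 30.4% were called, 17.0% positive. Clcn3 encodes ClC-3, a chloride-proton exchanger of endosomes and synaptic vesicles. Probe 16897 gave 0.15, 0.09, 0.22 and 0.081 in mice 1 to 4 on the Cy5 arrays and 1.85, 1.36, 1.59 and 1.56 on the Cy3 arrays. The Cy5 values sat just above 0 and the Cy3 values far above, with no overlap. The 4 mice averaged 0.86 ± 0.131 (adjusted p = 0.0104, limma) in the mean ratio. The swap component was -0.73 ± 0.112 (adjusted p = 0.0383, limma). With runs of 48 spots centred the mean ratio was 0.42 and missed the threshold (limma, adjusted p = 0.0623). Clcn4 encodes the related exchanger ClC-4 and had 3 probes of the same sign. Probe 16389 was near 0 on the Cy5 arrays and high on the Cy3 arrays. In mice 1 to 4, Clcn4 had -0.038, -0.075, 0.39 and 0.33 on the Cy5 arrays and 1.37, 1.52, 1.39 and 1.45 on the Cy3 arrays. Averaged over mice, the mean ratio was 0.79 ± 0.131 (adjusted p = 0.0119, limma). Its swap component was -0.64 ± 0.117 (adjusted p = 0.0385, limma). With runs of spots centred, its mean ratio was 0.40 and missed the threshold (limma, adjusted p = 0.113). Probe 3868 had a mean ratio of 0.81 ± 0.153 (adjusted p = 0.016, limma) and also no overlap between the orientations, but its swap component did not pass (-0.49, adjusted p = 0.0735), except with the mouse as a random block (adjusted p = 0.0331) or with ratios of small whole numbers missing (adjusted p = 0.0446). Probe 12601 stood at 0.36 ± 0.183 (adjusted p = 0.179). The swap calls of Clcn3 and of Clcn4 probe 16389 were lost as deposited and at one spread (limma, adjusted p = 0.0591 and 0.177 for both). They were also lost with runs of spots centred and without any 1 mouse. The part of the larger spread of the Cy3 arrays in these values was not tested. On the reading of ratios as Cy5 over Cy3, the negative swap components of Clcn3 and Clcn4 would be lower levels in the mutants. Had the ratios a fixed order of samples, they would be an effect of the dye.

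Clcn5 and Clcn7, of kidney endosomes and of lysosomes, did not pass by probe. The probes of Clcn5 stood at -0.83 (18629) and -0.52 (8569), with adjusted p of 0.0556 and 0.101, and their average was called (-0.68 ± 0.121, limma, adjusted p = 0.0131). Probe 18629 passed with the mouse as a random block (adjusted p = 0.0152), with values as deposited (-0.99, adjusted p = 0.0346) and with runs of spots centred (-1.31, adjusted p = 0.0203). Clcn7 had mice 1 to 4 at 0.29, 0.10, -0.49 and -1.17, and a mean ratio of -0.32 ± 0.271 (adjusted p = 0.403, limma). The sodium channel family was represented by Scn3b alone, a beta subunit that modulates the gating of the pore. It had 7 of 8 positive values and a mean ratio of 0.36 ± 0.18 (adjusted p = 0.182, limma).

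TRP genes had 2 negative calls on 9 probes (22.2% called) and no positive one. Over all probes 30.4% were called, 13.3% negative. Mean ratios were negative for 7 of the 9, and all 6 TRPM genes were among these. They were Trpm3 (-1.0), Trpm8 (-0.93), Trpm2 (-0.91), Trpm4 (-0.69), Trpm6 (-0.59) and Trpm5 (-0.45), and only Trpm8 passed. Trpm8 is known from cold-sensing neurons outside the brain. Trpm8 stood at -0.68, 1.03, -0.56 and -0.25 on the Cy5 arrays of mice 1 to 4 and at -1.72, -1.52, -2.44 and -1.28 on the Cy3 arrays. Every Cy5 value lay above every Cy3 value, and mouse 2 was positive in Cy5. The mean ratio was -0.93 ± 0.234 (adjusted p = 0.0344, limma). The swap component was 0.81 ± 0.168 (adjusted p = 0.0442, limma). Of its 8 values, 2 equalled a ratio of whole numbers up to 10 (within 0.001 in log2), as weak spots can give and other spots can meet. Over the TRP probes this held for 8.33% of values, and over all 78 channel probes for 6.32%. Over all spots it held for 4.76% to 8.73% of the usable values of an array. With such values treated as missing, Trpm8 had a mean ratio of -0.83 and missed the threshold (adjusted p = 0.0626, limma). It also missed it with arrays brought to one spread (-0.74, adjusted p = 0.122), with runs of spots centred (-0.45, adjusted p = 0.145) and without mouse 1, 3 or 4 (adjusted p up to 0.1).

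Trpv4, a channel that senses osmotic swelling, had the other call. Probe 4203 gave -1.23, -0.25, -0.75 and 0.30 in mice 1 to 4 on the Cy5 arrays and -1.57, -1.48, -0.39 and -2.05 on the Cy3 arrays. The 1 positive value was the Cy5 array of mouse 4. Over the 4 mice this gave a mean ratio of -0.93 ± 0.176 (adjusted p = 0.0161, limma). Trpv2 stood at 0.12 and Trpc4ap at 0.34, and neither passed (adjusted p = 0.555 and 0.233). Trpm3, a channel of neurons and choroid plexus, and Trpm2, of microglia and neurons, missed the threshold with adjusted p of 0.089 and 0.0763. In Trpm3, mouse 4 was lowest on the Cy3 array, at -3.89.

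In the swap component, 3 of 72 channel probes with values on all arrays were called (4.17%), against 7.84% of all 18797 probes. They were Trpm8 (positive) and Clcn3 and Clcn4 probe 16389 (negative), each described above. Positive swap components were called on 1.41% of all probes and negative ones on 6.43%. The median was -0.011 for the channels and -0.029 for all probes. At an unadjusted p below 0.05 there were 18 channel probes (limma), against 30.7% of all probes. With the probes of a gene averaged, 3 of 55 channel genes were called in the swap component, against 9.31% of all genes. These were Trpm8, Clcn3 and Kcnab2, and Clcn4 missed the threshold there (-0.44, limma, adjusted p = 0.0551). The 3 probe calls were absent with values as deposited, where limma called none of the 18797 probes (5785 at an unadjusted p below 0.05), and when any 1 mouse was left out. The 4 Cy5 arrays lay wholly below the 4 Cy3 arrays in 10 channel probes and wholly above in 3, against 16.7% and 5.62% of all probes. Of the 13 probes with a positive call in the mean ratio 11 had a negative swap component, and of the 9 with a negative call 7 had a positive one (84.6% and 77.8%). Over all probes called in the mean ratio with a swap component, the shares of opposite sign were 93.7% and 79.7%. By definition, the mean ratio and the swap component have opposite signs wherever the Cy3 average exceeds the Cy5 average in size. The Cy3 arrays had the larger spread, as given above. With all arrays brought to one spread none of the 3 swap calls passed (adjusted p = 0.177 to 0.231, limma).

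**Figure D4:**
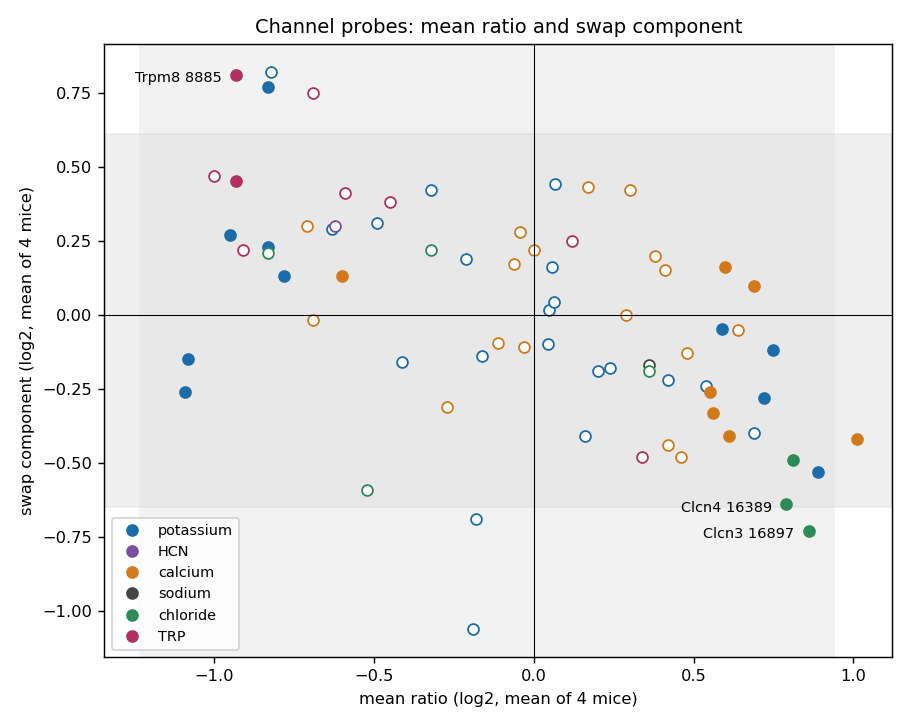
Mean ratio (x axis) and swap component (y axis) of the 72 channel probes with values on all 8 arrays, both in log2 units and averaged over 4 mice. Filled points were called in the mean ratio, the 3 labelled points also in the swap component, and the grey bands span the 5th to 95th percentile of all probes (-1.23 to 0.94 and -0.65 to 0.61). The positive calls lie mostly below the horizontal line at 0.

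Fewer probes were called with 1 mouse left out, which also leaves a replicate less. Without mouse 1, 2, 3 or 4 the number of channel probes called in the mean ratio was 12, 5, 8 and 8, in place of 22. Over all probes the number was 4015, 2615, 2544 and 3229, in place of 6256. None of the 22 channel values changed sign there. The channel probes that passed in each case were Cacna2d1 probe 1669, Clcn3, Kcnip2 probe 12757 and Kcnu1. A further 8 passed in none of the 4 cases, namely Cacna1a probe 6322, Cacna1g probe 1924, Cacnb1, Cacnb4 probe 17745, Cacng4 probe 15990, Kcnab1, Kcnc4 and Kcne3. Over the 22 probes, the adjusted p (limma) with a mouse left out ran from 0.03 to 0.135. With runs of 48 spots centred, 15 channel probes were called, 10 of them among the 22. Over all probes 4414 were called, 3394 of them among the 6256. The other 12 of the 22 channel calls were lost. Beside those of Trpm8, Cacng4, Clcn3, Clcn4 probe 16389, Kcnip2 probe 12025 and Kcnu1, they were those of Cacna1b (0.42), Cacna1g (0.32), Kcnab1 (-0.46), Kcnab2 (0.44), Kcnc4 (0.28) and Kcne3 (-0.49), with limma adjusted p from 0.0752 to 0.196. At one spread, the calls of Trpm8, Kcnab1, Cacna1a probe 6322 (0.52, adjusted p = 0.0812) and Cacnb1 (0.50, adjusted p = 0.0721) were lost. On all 8 arrays, 11 channel probes were positive and 4 negative, against 13.1% and 8.69% of all probes.

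Other channels and partners of channels were taken from a list of 71 genes, of which 35 were measured on 53 probes. Of 52 tested in the mean ratio, 13 were positive and 8 negative calls, with a median of -0.061, where 17.0% and 13.3% of all probes were called. In the swap component 6 of 47 were called, all negative, against 6.43% of all probes. They lay on Vdac1, Vdac2, Vdac3 and Cntn1 alone, so they were not spread over the list. None of these 6 passed with values as deposited, at one spread, with runs of spots centred or without any 1 mouse, where limma called no probe. Vdac1, the main pore of the outer mitochondrial membrane, stood at 1.18 ± 0.138 in the mean ratio and -0.74 ± 0.11 in the swap component (limma, adjusted p = 0.00924 and 0.0383). Cntn1, an adhesion molecule that associates with sodium channels, had 3 probes, at 1.13 ± 0.126, 0.88 ± 0.139 and 0.018 ± 0.207 (limma, adjusted p = 0.00924, 0.011 and 0.952). Ank3, which encodes ankyrin-G, the anchor of sodium and Kcnq channels at the axon initial segment, had 5 probes between -0.84 and 0.74, of which 2 had a positive and 1 a negative call.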

How the data were processed

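The deposited table holds 1 log2 value per spot and array for 8 two-colour cDNA arrays. Per the values and the labels, the authors' deposited log2 value is a ratio of both channels plus 1 additive constant per array. No source used here gives the numerator, background correction or normalization. From it, each array's median was subtracted, values that are a code (a ratio of 100000) were set to missing, and a mouse's 2 arrays were combined into the mean ratio and the swap component. Each was tested against 0 over 4 mice with limma 3.58.1 (R 4.3.3; lmFit, eBayes), with Benjamini-Hochberg adjustment over 20595 and 18797 probes and a threshold of 0.05.

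Names came from the platform annotation, shifted by 11 spots and up to probe 20000. Of 20794 spots 12771 were annotated, none with several symbols, and 8023 were not. Every channel symbol matched RefSeq. Named probes were those past the threshold, all probes of listed brain channels and genes whose probes differ. Others were added by name after their values were seen. The channel genes and the lists were chosen with earlier results of these data known. Replicates are mice by the labels.

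The fit was checked on simulated data of 20595 probes (mean ratio). It recovered 21% of log2 changes of 1 and 66% of changes of 2 with few probes changed, and 76% and 97% with 30% of the other probes changed. Of the unchanged probes, 0.0147% and 1.55% were called in these settings. The simulated noise was independent between mice and probes, without effects of array, dye or spot position, so only the fit was checked. Alternatives were other centring, spread, missing-value rules, fits and left-out mice. Array number limits the precision.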

Additional observations from a re-analysis of the deposited data

Results flagged for a closer look

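In 7 of 102 sets of 4 mice (53 named probes, in the mean ratio and, where measured, the swap component), 1 mouse stood far from the other 3. Chance alone gives about 1 in 20, or 5.1 sets. In the mean ratio this was mouse 3 of Cacna2d1 probe 2314, at 0.68 against -0.62 to -0.52. In the swap component, mouse 1 of Kcnq3 stood at 1.26 against -2.12 to -1.65, which was the widest distance. Mouse 2 stood apart in Cacna2d2 (-0.85 against 0.088 to 0.24) and in Cacnb4 probe 17745 (-0.66 against 0.30 to 0.46). Mouse 3 stood apart in Cacng4 probe 15019 (-0.43 against 0.39 to 0.52). Mouse 4 stood apart in Clcn7 (0.70 against 0.007 to 0.12) and in Kcnh1 (0.16 against 0.51 to 0.55). Among these probes, Cacnb4 probe 17745 alone was called, and in the mean ratio.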

How the results depend on the processing

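All values here are limma calls at an adjusted p below 0.05, and the causes of the changes were not tested. In the mean ratio, the 22 channel calls became 0 on the Cy5 arrays alone (17 at an unadjusted p below 0.05), where all probes gave 0 (4748 unadjusted). On the Cy3 arrays alone they became 24 of 73 tested (32.9%), against 6625 of 19308 probes (34.3%). Leaving out a mouse gave 5 to 12 channel calls and 2544 to 4015 of all probes. Of the 22, 6 were lost with values as deposited, 4 with arrays brought to one spread, 12 with runs of 48 spots centred and 1 with 8 arrays in one fit, and 7 held in all 4 of these. No called channel value changed sign there. In the same order of settings, 5031, 4824, 3394 and 5937 of the 6256 calls over all probes were kept. In the swap component, all probes and channels gave 0 with values as deposited (5785 and 19 unadjusted), one spread (3815 and 15), runs of 48 spots centred (4958 and 21) and each mouse left out (4111 to 5420 and 11 to 18). With 8 arrays in one fit and the mouse as a random block they gave 2975 and 7, and with ratios of small whole numbers missing the channels gave 6 of 42 tested (14.3%), 1 of them among the 3, against 2149 of 12290 probes (17.5%). As deposited, 37.4% of all calls in the mean ratio were positive, against 56.1%. No paired analysis was possible because the only control is 1 pool, so no wildtype samples carry replicate numbers.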

Other observations

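Some channel probes that missed the threshold had mean ratios far below 0 in mouse 1 and near or above 0 in mouse 4, and they were picked after their values were seen. Trpm2, a calcium-permeable channel opened by ADP-ribose, stood at -1.82, -1.20, -0.62 and 0.013 in mice 1 to 4. Kcnn3, a small-conductance calcium-activated potassium channel, stood at -2.34, -0.22, -0.15 and 0.17. Hcn3 stood at -1.38, -1.27, -0.33 and 0.49. The mice have no order, and the difference between them was not tested.

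Of the other channels on the partner list, P2rx3, an ATP-gated channel of sensory neurons, stood at -1.39 in the mean ratio (limma, adjusted p = 0.0219), and Mcoln1, a lysosomal cation channel, at -1.18 (limma, adjusted p = 0.0161).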
